A study of Mus musculus with 3 samples.

Results

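The genes of the polycomb complexes were examined as binding sites of EZH2 itself. They were 9 genes of 21887 protein-coding genes on the annotated chromosomes, taken by name and placed on mm10 with a RefSeq gene table of GRCm38.p6. Of them 5 encode subunits of polycomb repressive complex 1 (PRC1), namely Bmi1, Pcgf2, Cbx2, Cbx7 and Cbx8, and 4 encode core subunits of polycomb repressive complex 2 (PRC2), namely Ezh1, Ezh2, Eed and Suz12. For each gene all EZH2 intervals and summits from 10 kb before to 10 kb after the gene were taken. The data are EZH2 chromatin immunoprecipitation with sequencing (ChIP-seq) from bone marrow-derived macrophages of C57BL/6 mice, grown from marrow for 5 days with M-CSF, the growth factor that turns marrow cells into macrophages. The treated macrophages received LPS, a bacterial cell wall component, for 2 h, and the untreated ones (NT) did not. There was 1 EZH2 library per group and 1 input DNA library, for which no intervals were used here, so no difference has a replicate check and no test between groups was possible. The stimulated tracks are named TLR in the deposited file and were taken as the LPS sample, the only stimulated EZH2 sample.

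PRC2 and PRC1 work as a pair in gene repression. In PRC2, EZH2 or its relative EZH1 places the H3K27 methyl mark, SUZ12 holds the complex together, and EED binds the finished mark and stimulates the enzyme. In canonical PRC1, a CBX protein reads the methyl mark and a PCGF ring finger protein such as BMI1 or PCGF2 works with a RING protein that ubiquitinates histone H2A. In mouse embryonic stem cells, several CBX genes are known to be polycomb targets themselves.

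Each interval carries the authors' value at its summit, a whole number whose unit is not given, called the summit value below. The LPS library had 4651 intervals with summit values from 7 to 100 (median 16), and the NT library had 9643 with values from 11 to 253 (median 27). Read depth and scaling are not given in the sources used here, so a lower value in LPS cannot be told apart from a smaller or less enriched library. As for the cell type, ChIP intervals measure no expression, and the label could not be checked by marker levels. Among 12 macrophage marker genes 2 had an LPS and 7 an NT interval within 10 kb, where 21.2% of protein-coding genes had an LPS and 46.0% an NT interval. Among 7 lymphocyte markers 1 had an LPS and 2 an NT interval, among 5 fibroblast and endothelial markers 1 had both, and among 6 neutrophil and mast cell markers none had either.

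The promoter sequences are shown first because the results below set intervals against motifs and CG dinucleotides, the sequence feature of most polycomb target promoters in mammals. RefSeq promoter windows (GRCm38.p6, 250 bases before to 50 after the gene start, on the strand of the gene) were matched for 8 of the 9 genes, all except Cbx2. The windows below are those with a motif, Bmi1 (chr2:18676768-18677067, plus strand), Pcgf2 (chr11:97699599-97699898, minus strand), Cbx8 (chr11:119040864-119041163, minus strand), Ezh2 (chr6:47594981-47595280, minus strand) and Suz12 (chr11:79992856-79993155, plus strand). Capitals mark matches to the MYC E-box CACGTG, the YY1 motif AANATGGC or its reverse complement, and the E2F motifs TTTCCCGC and TTTGGCGC, all searched on both strands, and no matches overlapped.
Bmi1: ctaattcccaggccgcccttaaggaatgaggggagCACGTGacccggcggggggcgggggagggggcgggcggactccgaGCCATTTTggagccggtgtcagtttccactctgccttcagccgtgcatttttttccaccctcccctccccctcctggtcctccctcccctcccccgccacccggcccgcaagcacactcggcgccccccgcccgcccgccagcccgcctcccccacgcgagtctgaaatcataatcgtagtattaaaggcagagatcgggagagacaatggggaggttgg
Pcgf2: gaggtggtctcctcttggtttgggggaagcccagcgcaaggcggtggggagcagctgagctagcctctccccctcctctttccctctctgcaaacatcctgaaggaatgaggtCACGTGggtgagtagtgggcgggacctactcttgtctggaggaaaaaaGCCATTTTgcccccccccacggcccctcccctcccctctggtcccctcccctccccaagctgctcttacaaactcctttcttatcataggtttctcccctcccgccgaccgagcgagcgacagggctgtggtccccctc
Cbx8: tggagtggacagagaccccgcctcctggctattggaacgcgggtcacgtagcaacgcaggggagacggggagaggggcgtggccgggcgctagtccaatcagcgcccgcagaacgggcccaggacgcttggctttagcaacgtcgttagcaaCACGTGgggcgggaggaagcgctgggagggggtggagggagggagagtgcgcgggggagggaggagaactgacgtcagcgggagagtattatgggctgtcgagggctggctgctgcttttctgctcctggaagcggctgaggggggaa
Ezh2: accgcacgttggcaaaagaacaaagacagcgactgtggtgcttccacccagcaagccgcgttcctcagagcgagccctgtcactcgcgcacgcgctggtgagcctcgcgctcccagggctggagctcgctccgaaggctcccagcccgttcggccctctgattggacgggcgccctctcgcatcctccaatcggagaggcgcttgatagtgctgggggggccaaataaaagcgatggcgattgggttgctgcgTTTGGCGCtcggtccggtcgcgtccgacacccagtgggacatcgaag
Suz12: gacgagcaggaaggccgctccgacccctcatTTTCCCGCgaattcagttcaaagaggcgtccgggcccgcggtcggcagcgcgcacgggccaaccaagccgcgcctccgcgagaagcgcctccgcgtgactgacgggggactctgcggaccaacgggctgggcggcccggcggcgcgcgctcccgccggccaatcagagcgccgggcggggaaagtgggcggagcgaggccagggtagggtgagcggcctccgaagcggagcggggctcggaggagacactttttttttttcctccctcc

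The E-box was present in 3 of 4 PRC1 windows and in 0 of 4 PRC2 windows, against 7.84% of 21263 promoter windows of protein-coding genes. Its first base lay 215 bases before the start of Bmi1, 137 before that of Pcgf2 and 98 before that of Cbx8. The YY1 motif was present in 2 PRC1 windows and no PRC2 window, against 6.37% of all windows. Bmi1 and Pcgf2, whose proteins are the closely related PCGF4 and PCGF2, held both, with the YY1 match on the minus strand 170 and 89 bases before the start, and 0.762% of all windows held both. The E2F motif TTTGGCGC was in the Ezh2 window, 3 bases after the start, against 0.635% of all windows. The other E2F motif, TTTCCCGC, was in the Suz12 window, 219 bases before the start, against 1.41% of all windows. The E-box and both E2F motifs contain a CG. The windows of the polycomb genes held from 10 CG at Pcgf2 to 41 at Suz12, while 6035 of all windows held 0 to 4. The shares over all windows are therefore no background of like CG count. The genes and motifs were also chosen with earlier results of these data known, and enrichment was not tested. A match is a description of the letters and no proof of a bound site.

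Every PRC1 gene in the set carried EZH2 intervals in both libraries, and no PRC2 core gene did. All 5 PRC1 genes had an LPS interval within 10 kb, where 21.2% of protein-coding genes had one. All 5 also had an NT interval, where 46.0% of protein-coding genes had one. None of the 4 PRC2 core genes had an LPS interval, and 2 of them, Eed and Suz12, had an NT interval. Intervals of both libraries were thus found at 5 of the 9 genes, against 20.6% of all protein-coding genes, NT intervals alone at 2, against 25.4%, and LPS intervals alone at 0, against 0.635%. Within 2.5 kb of a listed gene start, all 4 PRC1 genes that have one held intervals of both libraries, against 14.1% of 17492 genes (14.6% with an LPS and 36.5% with an NT interval). There, 0 of 4 PRC2 core genes had an LPS interval and 2 had an NT interval alone, against 22.4% with NT alone and 0.515% with LPS alone. The PRC1 intervals are not independent, since Cbx2 and Cbx8 lie 5028 bp apart and share some of them. Counted once, the PRC1 genes had 9 LPS and 11 NT intervals, and the PRC2 core genes had 0 LPS and 2 NT intervals. Of the 13 NT intervals 3 had a value of at least 100, against 1.66% of all NT intervals, and 2 of at least 150, against 0.301%. By gene, Bmi1, Cbx2 and Cbx8 reached 150 in NT, where 1.12% of protein-coding genes reached 100 and 0.256% reached 150. Cbx2 did so through the interval upstream of Cbx8, whose NT summit lies 11734 bp from Cbx2, and its highest NT value was 68 with summits in the window and 38 for the gene alone.

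**Figure D1:**
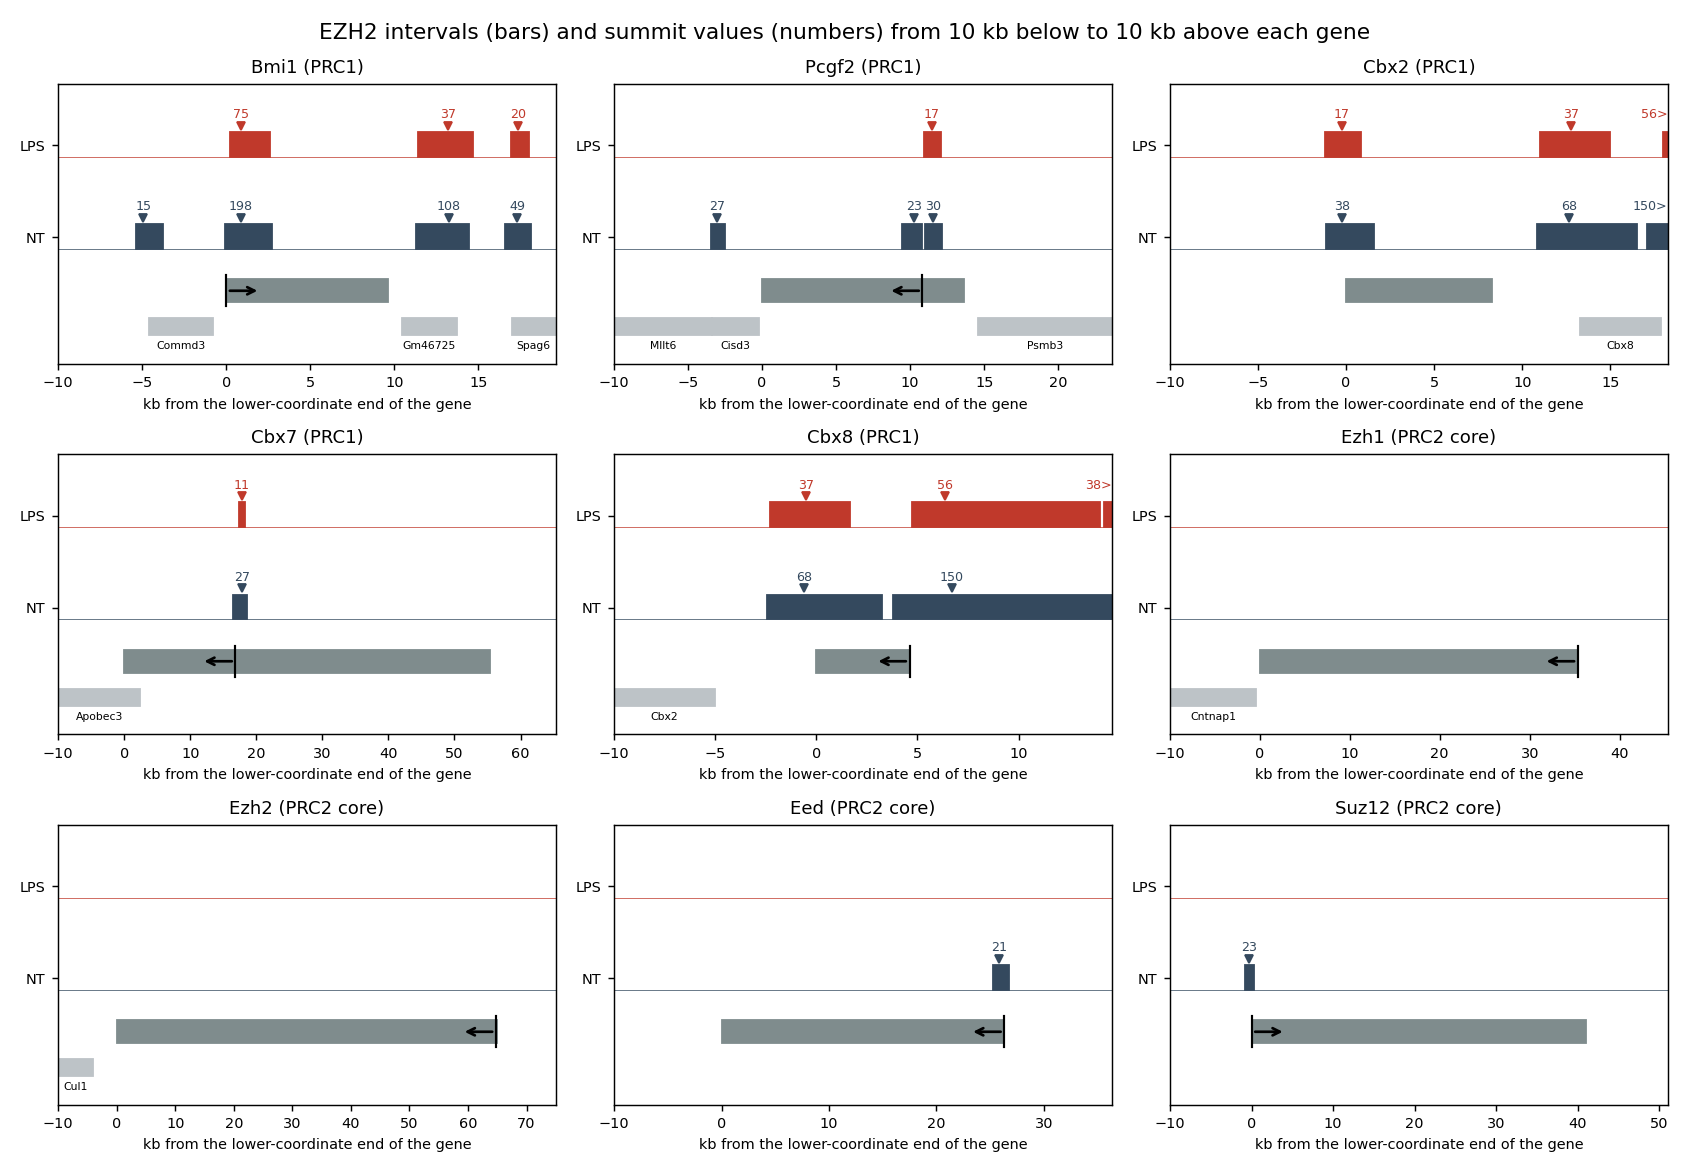
EZH2 intervals of the LPS library (red) and the NT library (dark blue) around each of the 9 genes, drawn to scale in kb from the lower-coordinate end of the gene (grey bar), with neighbouring protein-coding genes in light grey. Numbers are summit values, a > marks an interval whose summit lies outside the window, and the arrow marks the listed gene start and its direction (none listed for Cbx2); the PRC1 panels hold intervals of both libraries, and the panels of Ezh1 and Ezh2 are empty.

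**Figure D2:**
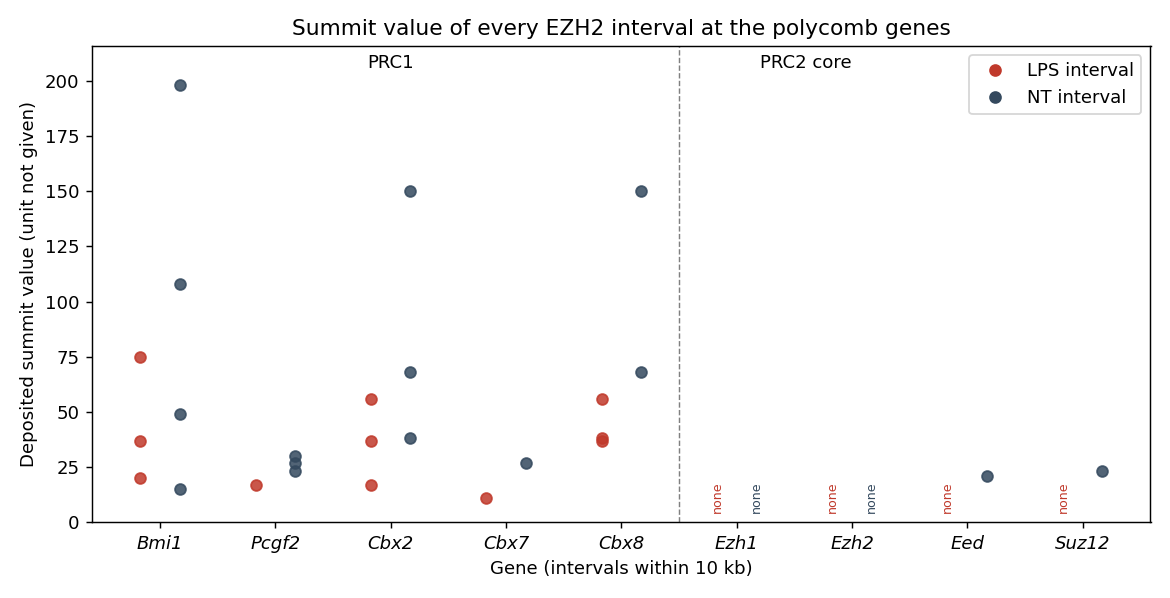
Summit value of every interval within 10 kb of each gene, with the LPS library in red to the left of the NT library in dark blue, and the word none where a library had no interval. The PRC1 genes reach 75 in LPS and 198 in NT, both at Bmi1, and the PRC2 core genes have no LPS interval and NT values of 21 and 23.

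Of the 9 genes, the PCGF gene Bmi1 had the highest values. Bmi1 (chromosome 2, 18677018 to 18686629, plus strand) encodes the ring finger subunit first found as a partner of Myc in mouse lymphoma. The interval over its start had a summit value of 75 in LPS, from 18677227 to 18679608, and of 198 in NT, from 18676927 to 18679719. It ranked 19 of 4651 in LPS and 6 of 9643 in NT. The summits lay inside the gene, 855 bp after the start in LPS and 871 bp after it in NT. The upstream edge was 209 bp after the start in LPS and 91 bp before it in NT, so that the window with the E-box and the YY1 motif was met for 0 bases by the LPS interval and for 141 bases by the NT interval. These bases were the last of the window, and neither motif lay in them.

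The interval at Bmi1 was narrow for its height. Its width was 2382 bp in LPS, where 107 intervals with a value of at least 56 had a median width of 5069 bp and 8 of them were narrower. In NT its width was 2793 bp, where 29 intervals with a value of at least 150 had a median of 7407 bp and 4 were narrower. The limits of 56 and 150 are the values of the broad interval at Cbx8, which was the opposite case. By width the Bmi1 interval ranked 1121 in LPS and 1255 in NT.

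**Figure D3:**
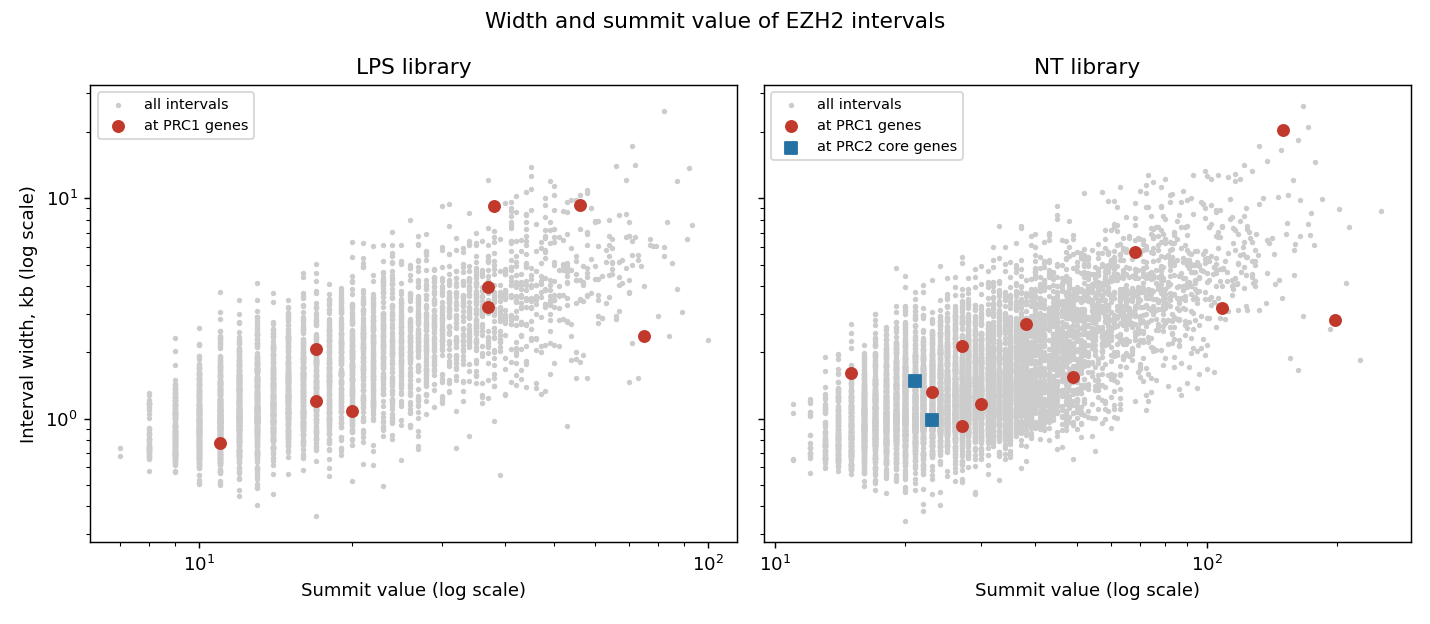
Width in kb against summit value, both on log scales, for all intervals of the LPS library (left) and the NT library (right), with those at PRC1 genes as red circles and those at PRC2 core genes as blue squares. In NT the Bmi1 interval (198, 2.79 kb) lies at the lower right edge and the Cbx8 interval (150, 20.5 kb) near the top, and the PRC2 core intervals (21 and 23, 1.49 and 0.99 kb) lie among those of low value.

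Bmi1 had further intervals beyond its higher-coordinate end. The next met Gm46725, a predicted protein-coding gene 873 bp from Bmi1, with 37 in LPS (18688446 to 18691673) and 108 in NT (18688292 to 18691478). A further interval at the lower-coordinate end of Spag6, which encodes a protein of motile cilia, had 20 in LPS (18693958 to 18695042) and 49 in NT (18693604 to 18695143). On the other side, an interval met Commd3, a COMMD family gene that ends 787 bp before Bmi1, in NT alone, with a value of 15. The Bmi1 window thus held 3 intervals in LPS, and with the Commd3 interval 4 in NT. The Bmi1 window was covered for 6.7 kb in LPS and 9.13 kb in NT.

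Pcgf2 (chromosome 11, 97688821 to 97702434, minus strand), the closest relative of Bmi1, had low values. Its listed start, 97699648, lies inside the annotated gene. In LPS it had 1 interval, from 97699724 to 97700929, with a value of 17. In NT it had 3, with values of 30 (97699814 to 97700974), 23 (97698297 to 97699622) and 27 (97685383 to 97686310). The first of these matched the LPS interval, with its summit 641 bp before the start in LPS and 705 bp before it in NT. The NT intervals of 30 and 23 lay on either side of the start, 191 bp apart. The third met Cisd3 and Mllt6, neighbouring genes, rather than Pcgf2. The highest NT value of Pcgf2 stood at the 55.8th percentile of genes with an NT interval, and that of Bmi1 at the 99.9th. Both promoters held the E-box and the YY1 motif, and a link between motifs and summit values was not tested.

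The chromobox genes fell into a pair of unlike loci. Cbx2 and Cbx8 lie side by side on chromosome 11 (119023019 to 119031275 for Cbx2, and 119036303 to 119040913 on the minus strand for Cbx8). At the lower-coordinate end of Cbx2 an interval had a value of 17 in LPS (119021814 to 119023891) and of 38 in NT (119021890 to 119024575). Between Cbx2 and Cbx8, reaching into the 3' part of Cbx8, an interval had 37 in LPS (119034010 to 119037986) and 68 in NT (119033842 to 119039560). Its summit lay 5104 bp after the start of Cbx8 in LPS and 5232 bp after it in NT, beyond the end of that gene.

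Upstream of Cbx8 lay the widest interval of the 9 genes. In LPS the stretch held a pair of intervals with values of 56 (119041018 to 119050355) and 38 (119050545 to 119059752), 9338 and 9208 bp wide, which ranked 27 and 31 of 4651 by width. In NT it was a single interval from 119040090 to 119060557, 20468 bp wide, which ranked 3 of 9643 by width and 29 by its value of 150. The LPS interval of 56 ended 105 bp before the start of Cbx8 and covered 146 bases of its promoter window, and the NT interval reached 823 bp past the start and covered all 300 bases. The E-box of Cbx8 lay just outside the LPS interval and inside the NT interval. At Pcgf2 it was the reverse, with the E-box inside the LPS interval and in the gap between the NT intervals.

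Cbx7 (chromosome 15, 79915804 to 79971143, minus strand) encodes the main canonical CBX protein of mouse embryonic stem cells. Its listed start, 79932646, lies inside the annotated gene. It had 1 interval per library, with a value of 11 in LPS (79933246 to 79934019) and 27 in NT (79932201 to 79934335). Its summits lay 987 bp before the listed start in LPS and 1003 bp before it in NT. The NT value was the library's median, and the LPS value stood at the 15.5th percentile of genes with an LPS interval.

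The PRC2 core genes had intervals of low value or none. Ezh2 (chromosome 6, 47530274 to 47595270), which encodes the protein that was immunoprecipitated, had no interval within 10 kb in either library. The nearest interval was 850 kb away in LPS, at Zfp467, and 74.8 kb away in NT, at Cul1. Ezh1 (chromosome 11, 101191115 to 101226463), which encodes the related enzyme of non-dividing cells, had none within 10 kb either, and the nearest were 14.4 kb away with a value of 20 in LPS and 12.6 kb away with 26 in NT. Both of these lay at Cntnap1, on the side of the 3' end of Ezh1.

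Eed (chromosome 7, 89954654 to 89980976, minus strand) and Suz12 (chromosome 11, 79993106 to 80034123, plus strand) had 1 interval each, in NT alone. That of Eed ran from 89979923 to 89981409 with a value of 21, and its summit lay 527 bp after the gene start. That of Suz12 ran from 79992361 to 79993350 with a value of 23, and its summit lay 305 bp before the start. Both covered all 300 bases of the promoter window, including the E2F motif of Suz12. Their values stood at the 20.8th and 28.8th percentile of genes with an NT interval. The nearest LPS interval was 321 kb from Eed and 18.6 kb from Suz12.

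An NT interval as low as these often had no LPS partner. Of the NT intervals whose value was within 5 of that of Eed, 23.2% of 4350 met an LPS interval, and for Suz12 it was 26.1% of 4433. The lack of an LPS interval at Eed and Suz12 was therefore the common case at that height, and it cannot be told apart from a general difference between the libraries. Among the PRC1 genes, the Pcgf2 interval of 23, at the same height as that of Suz12, was not found in LPS either, nor were the Pcgf2 interval of 27 and the Commd3 interval of 15. The low PRC1 intervals that were found in LPS had NT values of 27 at Cbx7 and 30 at Pcgf2. Of intervals of like value, 33.5% of 3806 were found for Cbx7 and 40% of 3138 for Pcgf2. The value at Cbx7 was the same as that of the Pcgf2 interval of 27 that was not found. Over all NT intervals the share with an LPS partner was 13% of 463 with a value up to 15 and 25.4% of 2090 with a value over 20 and up to 25 (95% Wilson interval 23.5 to 27.3%). All 152 with a value over 100 had a partner (97.5 to 100%).

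The NT list is the longer one. When it was limited to its highest intervals, as many as LPS has, all 5 PRC1 genes kept an NT interval, where 26.1% of protein-coding genes had one, and 0 of 4 PRC2 core genes did. The cut fell among intervals with a value of 27, the value of the only NT interval of Cbx7. Whether Cbx7 was kept thus depended on the order of ties. With 5 and 4 genes, of which Cbx2 and Cbx8 share intervals, the counts describe these genes and were not tested. The windows were unequal, since PRC2 core genes run from 26.3 kb at Eed to 65 kb at Ezh2, and PRC1 genes from 4.61 kb at Cbx8 to 55.3 kb at Cbx7.

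Summit values were also divided, LPS by NT, over merged regions, the deposited unions of overlapping intervals. In the 4027 regions with intervals of both libraries the ratio had a median of 0.5, and the central 95% lay between 0.282 and 0.824. The PRC1 genes held 8 such regions, with ratios from 0.343 to 0.567, all inside that range, 6 of them below the median and 2 above it. At the start of Bmi1 it was 0.379, and in 22 shared regions of like NT value (within 20%) the median was 0.426. If each unit were 1 independent read, which is not known, counting error alone would give that ratio a 95% interval of 0.286 to 0.496 (exact binomial). At the region met by Gm46725 it was 0.343, the lowest ratio at these genes. This was the 4.17th percentile of 216 regions of like NT value, whose median was 0.493. Under the same assumption its 95% counting interval was 0.229 to 0.502, which holds that median.

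The other high region was that of Cbx8, with a ratio of 0.373, against a median of 0.47 in 68 regions of like NT value. Its counting interval, 0.27 to 0.511, holds that median. These 3 regions had NT values of at least 100, and over 160 shared regions at that height the median ratio was 0.475 and the range 0.269 to 0.67. The 2 ratios above the median of all shared regions were 0.567 at the Pcgf2 start, from 17 in LPS and 30 in NT, and 0.544 between Cbx2 and Cbx8, from 37 in LPS and 68 in NT. Ratios at the Cbx2 end, at Cbx7 and at Spag6 were 0.447, 0.407 and 0.408. In all 8 regions the LPS value was below the NT value, as it was in general in this pair of libraries. The summits of LPS and NT lay 16 bp apart at the Bmi1 start and at Cbx7, and 336 bp apart in the broad Cbx8 region.

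**Figure D4:**
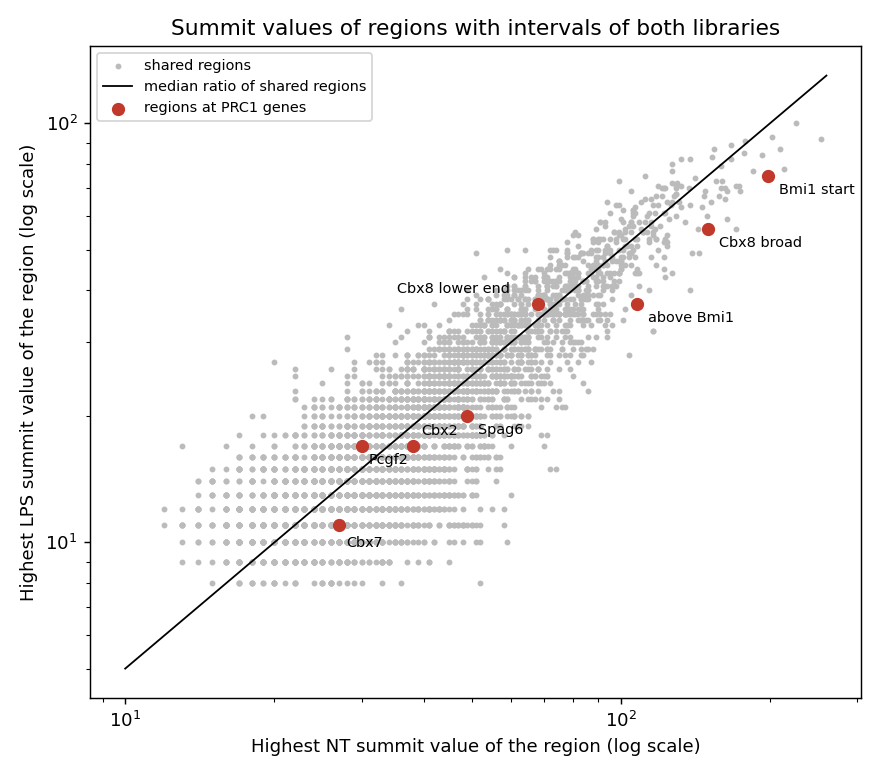
Highest LPS summit value against highest NT summit value, both on log scales, for the 4027 merged regions with intervals of both libraries (grey), with the 8 regions at PRC1 genes in red and a line at the median ratio of 0.5. The red points lie inside the cloud, with the 3 highest NT values (198, 150 and 108) below the line.

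The numbers of CG dinucleotides overlapped between the complexes. Bmi1, with the highest NT value of the 9 genes, and Ezh1, with no interval, each had 23 in the promoter window. Cbx8 had 24 and Cbx7 33, while Ezh2 had 31 and Suz12 41, a count not exceeded in 96.1% of windows. Pcgf2 had 10 and Eed 17, against a median of 13 over all windows. In all 21263 windows the share that met an interval went up with the CG count. With 20 to 29 CG, 20.3% of 4358 windows met an LPS and 58.8% an NT interval, and with 30 or more, 23.2% of 3283 met an LPS and 64.9% an NT interval. With 0 to 4 CG, 0.845% of 6035 met an LPS and 1.34% an NT interval. Eed, in the class of 15 to 19 CG, and Suz12 had windows met by an NT interval, as 45.2% and 64.9% of their classes did. Ezh1 and Ezh2 were among the windows of their classes met by none. Among the PRC1 genes, the windows of Bmi1 and Cbx7 were met by an NT interval alone, as those of Eed and Suz12 were. The windows of Pcgf2 and Cbx8 were met by intervals of both libraries.

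**Figure D5:**
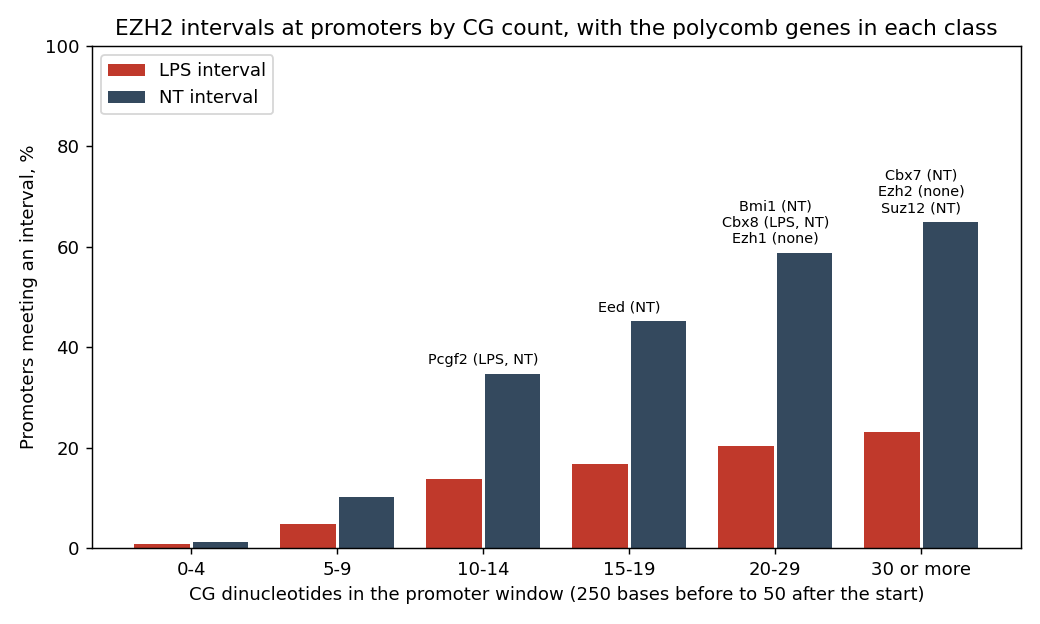
Percentage of promoter windows of protein-coding genes that met an LPS interval (red) or an NT interval (dark blue), by number of CG dinucleotides, with the 8 matched polycomb genes written over their class and the libraries whose intervals met their own window in brackets. Genes of both complexes stand in the classes of 20 to 29 and of 30 or more, with Pcgf2 and Eed in lower ones.

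Genes most like each PRC1 gene were sought among 4368 named protein-coding genes with intervals of both libraries, by the distance in the log2 of 4 values, which were the highest summit value and the kb covered within 10 kb in each library. Bmi1 was nearest to Dqx1 (78 in LPS and 213 in NT) and Pcgf1 with the same values, which share the interval at the homeobox gene Tlx2, followed by Ovca2 (77 in LPS and 185 in NT). The genes most like Cbx8 included the homeobox genes Dlx2 (56 in LPS and 171 in NT) and Hoxd9 (65 in LPS and 131 in NT). Cbx2 was nearest to Bahcc1 (49 in LPS and 139 in NT), then Ankrd63 and Plcb2 (69 in LPS and 164 in NT at both), and this rests on the interval it shares with Cbx8. The genes most like Pcgf2 included Pdxp (17 in LPS and 33 in NT) and Zfp36l2 (17 in LPS and 34 in NT). Those most like Cbx7 included Fam81a (10 in LPS and 30 in NT) and Crkl (11 in LPS and 25 in NT). The distance was 0.152 between Bmi1 and Dqx1, 0.226 between Cbx8 and Dlx2, 0.347 between Cbx2 and Bahcc1, 0.188 between Pcgf2 and Pdxp, and 0.205 between Cbx7 and Fam81a.

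The other subunit genes of both complexes followed no single pattern. Of 8 further PRC2 genes 1 had an LPS interval within 10 kb and 6 an NT interval, against 21.2% and 46.0% of protein-coding genes. The 1 with an LPS interval was Epop, whose protein is an accessory subunit of PRC2. Epop (chromosome 11, 97627387 to 97629716) had a value of 68 in LPS (97626492 to 97630633) and of 129 in NT (97626087 to 97631267), over the whole gene, and 11 in a second LPS interval. The other 5 with an NT interval were low, with 18 at Rbbp4, 22 at Rbbp7, 12 at Aebp2, 20 at Mtf2 and 19 at Phf1, where the interval met Cuta and not Phf1. Jarid2 and Phf19 had none. Of these 8 genes Epop alone had an NT value above 23, the highest at the PRC2 core genes.

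Of 17 further PRC1 genes 7 had an LPS interval and 10 an NT interval, against 21.2% and 46.0% of protein-coding genes. Cbx6, on chromosome 15 near Cbx7, had 14 in NT alone. Pcgf1 had 78 in LPS and 213 in NT, but its summits lay 7215 bp from the gene in LPS and 7567 bp in NT, in an interval that met Dqx1 and Tlx2. Pcgf5 had 17 in LPS and 25 in NT at its own start.

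Among the genes of variant PRC1, Kdm2b, whose protein binds unmethylated CG-rich DNA, had 14 in LPS and 29 in NT inside the gene, and Bcor, a partner of PCGF1, had 13 in LPS and 30 in NT. L3mbtl2 had 14 in LPS and 29 in NT in an interval that met the neighbouring gene Chadl. The catalytic RING genes differed, with 10 in LPS and 25 in NT at Ring1 and no interval at Rnf2. Rybp had 24 and Phc1 18, both in NT alone, the second at the neighbouring gene M6pr. Pcgf3, Pcgf6, Phc2, Phc3, Yaf2 and Scmh1 had none. Over all 30 further polycomb genes, the enzymes that oppose the complexes included, 9 had an LPS interval, 20 an NT interval and 9 both, against 21.2%, 46.0% and 20.6% of protein-coding genes.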

How the data were processed

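EZH2 ChIP-seq libraries of LPS-treated and untreated macrophages, 1 each, were compared. BWA, SICER and mm10 are named, without version or role, per the submitters' processing notes. The deposited file held 5 tracks, which were intervals and summits of each library and merged regions. The score of each summit was deposited by the authors as a whole number, and its unit, scaling, read depth and use of the input are not given in the sources used here. Most summits lie on a 16 bp grid (4340 of 4651 in LPS and 9318 of 9643 in NT). Deposited BED positions were converted to 1-based ones.

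Intervals meeting the window from 10 kb below to 10 kb above a gene by at least 1 bp were counted with pandas 2.3.3. Gene ends came from GRCm38.p6, starts and strand from the RefSeq promoter table, which lists 17492 of 21887 protein-coding genes. All 9 genes, their neighbours, the 3 genes most like each, and every further polycomb gene with an interval above its library's median were named by rule, except a few that are not reported here. Polycomb genes with lower values or no interval fall outside that rule and were named after their values were seen. Alternatives changed the window, the interval list and the scaling of the ratio. The genes, lists and motifs were chosen with earlier results of these data known. Window rules were tested on simulated data. Wilson and exact binomial intervals (scipy 1.17.1) cover counting error only.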

Additional observations from a re-analysis of the deposited data

How the results depend on the processing

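No paired analysis was possible because each group had 1 library, and no replicate could be left out. Among 325 values computed again under the alternatives, 265 were close to the main value, judged by a fold of 1.5 or by its counting interval. Shares of all protein-coding genes and ratios were close only inside that interval. Some that moved were therefore within 1.5 times of the main value, such as 18.8% against 21.2% with an LPS interval. The other 60 moved, 38 of these for single genes. Most of the values were counts, shares, summit values or covered lengths, which have no direction to change. Cbx7 in LPS and Eed and Suz12 in NT had no value where their intervals were left out. The counts of PRC1 genes stayed at 4 or 5 in both libraries under every alternative. Cbx2 and Cbx8 depended on the window. For the gene alone, Cbx2 had 17 in LPS and 38 in NT, with 0.873 kb covered in LPS and 1.56 kb in NT. Cbx8 alone had 37 in LPS and 150 in NT, a ratio of 0.247, with 1.68 kb covered in LPS and 4.08 kb in NT. These values belong to different regions, because the LPS interval of 56 ends 105 bp before the gene. Within each merged region the ratio was 0.544 for the region of 37 and 0.373 for that of 150. With 20 kb, 2 PRC2 core genes had an LPS interval (Ezh1 with 20 and Suz12 with 10). PRC2 core genes with an NT interval dropped to 0 both when intervals under the library's median were left out and with the NT list at the length of the LPS list. The first of these left 4 further polycomb genes in LPS and 9 in NT, and the second 9 in NT. Within 2.5 kb of a listed start they were 3 in LPS and 12 in NT. The median ratio of the PRC1 genes, 0.379, became 0.758 when LPS values were divided by the median ratio of shared regions. By gene, that scaling moved Pcgf2 from 0.567 to 1.13, above an equal value. The other PRC1 genes stayed below it, from 0.747 at Cbx2 and Cbx8 to 0.815 at Cbx7. Protein-coding genes with an LPS and an NT interval were 16.2% and 38% for the gene alone, 17.6% and 40.5% with 2.5 kb, 18.8% and 42.5% with 5 kb, 25.7% and 52% with 20 kb, 12.8% and 26.9% at or above the median value, and 14.6% and 36.5% at a listed start, and 26.1% had an NT interval in the shortened list. Except that these settings use fewer or more bases or intervals by construction, the cause was not tested.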

Other observations

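Of 5 genes for enzymes that oppose polycomb repression, or their partners, 1 had an LPS interval within 10 kb and 4 an NT interval, where 21.2% of protein-coding genes had an LPS and 46.0% an NT interval. Bap1, the deubiquitinase that removes the PRC1 mark from histone H2A, had 38 in NT alone, in an interval that also met Phf7. Its partner gene Asxl2 had 33 in NT alone, and Asxl1 had none. Kdm6a, an H3K27 demethylase gene, had 31 in NT alone. Kdm6b, the H3K27 demethylase gene known to be induced by LPS in mouse macrophages, had 8 in LPS and 20 in NT.

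Bcor, on the X chromosome, had the most intervals of the 30 further polycomb genes. There were 3 in LPS with values of 12 to 13 and 13 in NT with values of 18 to 30, with every summit inside the gene. They covered 5.01 kb in LPS and 26.8 kb in NT. No test of this pattern was possible with 1 library per group.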
